A study of Mus musculus with 6 samples.

Results

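The 9 genes described here encode interferon regulatory factors (Irf1, Irf2, Irf3, Irf5, Irf7 and Irf9) and the Irf2-binding cofactors (Irf2bp1, Irf2bp2 and Irf2bpl). They were taken by exact gene symbol from a table of 55377 genes, and all 9 were among the 14683 genes with enough counts to be tested. Primary chondrocytes, the cells that make cartilage matrix, had been cultured from mouse articular cartilage and transfected either with an siRNA against Irf1 (3 libraries, the Irf1-knockdown group) or with a control siRNA (3 libraries). Total RNA was taken 36 h after transfection and read by stranded sequencing of messenger RNA. The labels give no mouse strain, age or siRNA sequence, and they name no separate cultures or animals behind the replicates. The p-values therefore measure only how far these samples spread, and that spread may be technical.

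Interferon regulatory factors share an amino-terminal DNA-binding domain that recognises repeats of the letters GAAA in the promoters of interferon-responsive genes. IRF1 is an activator that interferon-gamma induces, and IRF2 binds the same sites and mostly opposes it. IRF3, IRF5 and IRF7 wait in the cytoplasm until pathogen sensors and the kinase TBK1 or its relatives switch them on, and IRF9 is the DNA-binding subunit of the complex ISGF3 that answers type I interferon. The Irf2bp proteins were found as partners of IRF2 in human cells. They carry a zinc finger and a RING domain and act mostly as corepressors, and IRF2BP2 also binds the TEAD cofactor VGLL4.

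Libraries held 22349142 to 26752065 counts with Irf1 siRNA and 28565096 to 29282494 with control siRNA, so each knockdown library was shallower than each control library. Chondrocyte markers were present in every library, with summed levels of 87910 to 114300 CPM (counts scaled to library size, with TMM factors between libraries) with Irf1 siRNA and 87810 to 114600 CPM with control siRNA. Of 9 chondrocyte markers 1 was lower in edgeR, against 12.0% of all tested genes. It was the link protein gene Hapln1, with 19456 to 27094 counts with Irf1 siRNA and 51858 to 55196 with control siRNA. Col2a1, at up to 82180 CPM, makes up most of the sum, so the sum does not show this fall. Fibroblast markers summed to 1026 to 1200 CPM with Irf1 siRNA and 1294 to 1413 CPM with control siRNA. Of the 4 tested, only Col3a1 was called, as lower (log2 fold change −0.55). The 5 mural cell markers summed to 749.9 to 870.7 CPM with Irf1 siRNA and 754.6 to 875.5 CPM with control siRNA. Of the 3 tested, only Mcam was called, as higher (0.86). The part of these markers in the results was not tested. Of 12 macrophage markers, Adgre1, C1qb and C1qc had 0 counts in all 6 libraries, and Spi1 had 5 counts in total in each group. The 12 summed to 13.28 to 13.98 CPM with Irf1 siRNA and 11.24 to 14.55 CPM with control siRNA, mostly from Cd68 and Mrc1. Of 7 lymphocyte markers, 5 had 0 counts in all libraries. In bulk RNA, fewer cells of a type and less RNA per cell cannot be told apart.

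The sequence of Irf1 is shown first because the gene was the target of the siRNA. Small RNAs in Argonaute proteins pair with transcripts mainly through a seed, the bases that follow their first one. The 7-letter words searched were ACTGATC, its shifted form CTGATCA, the word GCTATCT, and its shifted form CTATCTA, which had been picked on these same libraries. At least 1 of them stood in the 3′ UTR, the untranslated end of the transcript, of 43.8% of genes lower with Irf1 siRNA, 14.4% of genes higher and 19.8% of genes that did not pass the test. Because the words were picked on the libraries that give these shares, the difference between the shares supports nothing here. In the coding sequence of Irf1 (transcript Irf1-202 of GENCODE mouse release M21, build GRCm38, chr11:53774409-53774427, plus strand, exon 7), a stretch of 19 bases carries the reverse complement of GCTATCT at bases 2 to 8 and the word ACTGATC at bases 12 to 18. Capitals mark both:
Irf1 coding stretch: cAGATAGCaccACTGATCt
This arrangement of both words, with 3 bases between them, was present in 4 transcripts of Irf1 and in no other gene among 141767 transcripts of 55450 genes. Both the words and their spacing were fixed before this search. How often a pattern of this length occurs by chance was not computed, so its presence in Irf1 alone supports nothing here. Whether it is the site of the siRNA was not tested, since the siRNA sequence is not given in the sources used here.

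Irf1 also held words in the 3′ UTR of its transcripts Irf1-201 and Irf1-202. The words stand in capitals here, with the flanking bases of the plus strand of chromosome 11 (chr11:53777058-53777076 and chr11:53777214-53777232, GRCm38):
Irf1 3′ UTR site 1: acatttCTGATCAgaggtg
Irf1 3′ UTR site 2: tcttgaCTATCTAttagaa
Among the other 8 genes, Irf5 (chr6:29535480-29535498, plus strand) and Irf2bp2 (chr8:126593378-126593396, minus strand) each held a word in the coding sequence, and Irf9 (chr14:55609021-55609039, plus strand) held a word that runs across the stop codon of Irf9-202 and lies in the 3′ UTR of the protein-coding transcript Irf9-207:
Irf5 coding site: gacctgCTGATCAgccccc
Irf2bp2 coding site: agtcgtGCTATCTgtgtga
Irf9 stop codon site: tgggacACTGATCgtcgcg
Irf2, Irf3, Irf7, Irf2bp1 and Irf2bpl held none in a protein-coding transcript. For comparison, 2871 of 12824 tested genes with an annotated 3′ UTR (22.4%) held a word there. Because of how the words were picked, their presence supports nothing here.

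Irf1 (ENSMUSG00000018899.18, chr11:53770014-53778374, plus strand, GRCm38) was measured first, since its level checks the labels. It had 125, 140 and 141 counts in the Irf1 siRNA libraries, against 312, 355 and 362 in the control siRNA libraries. These counts correspond to 5.64, 5.08 and 6.02 CPM with Irf1 siRNA and 11.1, 12.6 and 12.2 CPM with control siRNA. Every knockdown library lay below every control library, on the side its label gives. The log2 fold change was −1.10 (SE 0.11, 95% interval −1.34 to −0.87, adjusted p = 3.0e-06 in the edgeR quasi-likelihood test with Benjamini-Hochberg adjustment over all tested genes). As a ratio to the control level the interval runs from 0.396 to 0.545, around 46.5% of that level. Replicates varied by 8.44% with Irf1 siRNA, close to the 8.60% that counting error alone gives at this depth. A change larger than that of Irf1 in either direction was rare, since 98.5% of the tested genes had a smaller absolute log2 fold change.

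Across the 9 genes, 2 were lower and 0 were higher at an adjusted p under 0.05 in edgeR, namely Irf1, the siRNA target, and Irf2bpl, a corepressor. That is 22.2% of the genes described here, against 22.4% of all tested genes (10.4% higher and 12.0% lower), so the count is near the background. The CPM ranges of the groups did not overlap for the same 2 genes, against 38.1% of all tested genes. The median log2 fold change of the 9 genes was 0.02, and that of all tested genes was 0.00.

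**Figure D1:**
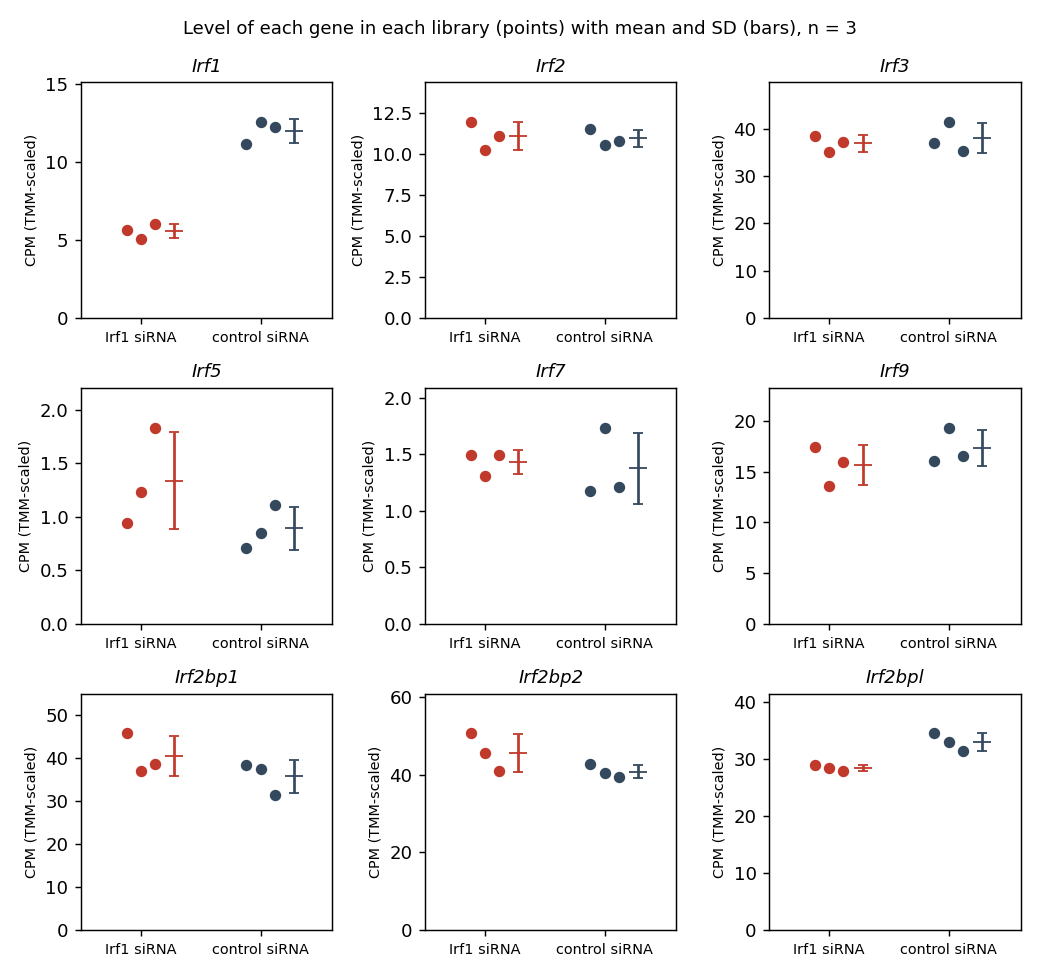
TMM-scaled CPM of each gene in each library, with Irf1 siRNA on the left and control siRNA on the right of each panel; points are libraries and bars are mean and SD (n = 3). Irf1 and Irf2bpl are the genes whose groups do not overlap, at 5.08 to 6.02 CPM against 11.1 to 12.6 CPM and at 27.8 to 28.9 CPM against 31.4 to 34.4 CPM.

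Irf2 (ENSMUSG00000031627.10) encodes the factor that competes with IRF1 for its binding sites. Its level was 11.96, 10.24 and 11.1 CPM in the Irf1 siRNA libraries, against 11.5, 10.5 and 10.8 CPM in the control siRNA libraries. The 2 groups overlapped, and the log2 fold change was 0.02 (SE 0.10, adjusted p = 0.923 in edgeR). Its 95% interval, −0.19 to 0.22, does not reach a change as large as that of Irf1 and ends at 1.17-fold upward.

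The ratio of Irf1 counts to Irf2 counts can be read inside each library with no scaling between libraries. Irf1 had 0.472, 0.496 and 0.542 counts per count of Irf2 in the Irf1 siRNA libraries, against 0.966, 1.195 and 1.13 in the control siRNA libraries. Thus Irf1 counts were near those of Irf2 with control siRNA and about 0.503 of them with Irf1 siRNA. The ratio was 2.17-fold lower with Irf1 siRNA (−1.12 on the log2 scale) and the groups did not overlap. The exact permutation test (two-sided, n = 3 each) gave p = 0.1, the smallest p this design allows.

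Ratios of Irf1 to each of the other 8 genes showed no overlap between groups in 8 of 8 cases, each with exact permutation p = 0.1, the smallest possible (two-sided, n = 3 each). Since the fall of Irf1 enters all 8 ratios, they are not separate results and show nothing particular to this family. Of all tested genes, 98.5% had a smaller absolute log2 fold change than Irf1. Ratios of Irf1 to genes outside this part were not computed. The difference was smallest against Irf2bpl, which itself was lower, at 1.85-fold, and against Irf9 at 1.94-fold. It was largest against Irf5, at 3.16-fold, where Irf1 had 3.28 to 5.95 counts per count of Irf5 with Irf1 siRNA and 10.97 to 15.6 with control siRNA. Against Irf3 the ratio was 2.09-fold lower, and against Irf2bp1 and Irf2bp2 it was 2.43-fold and 2.40-fold lower.

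**Figure D2:**
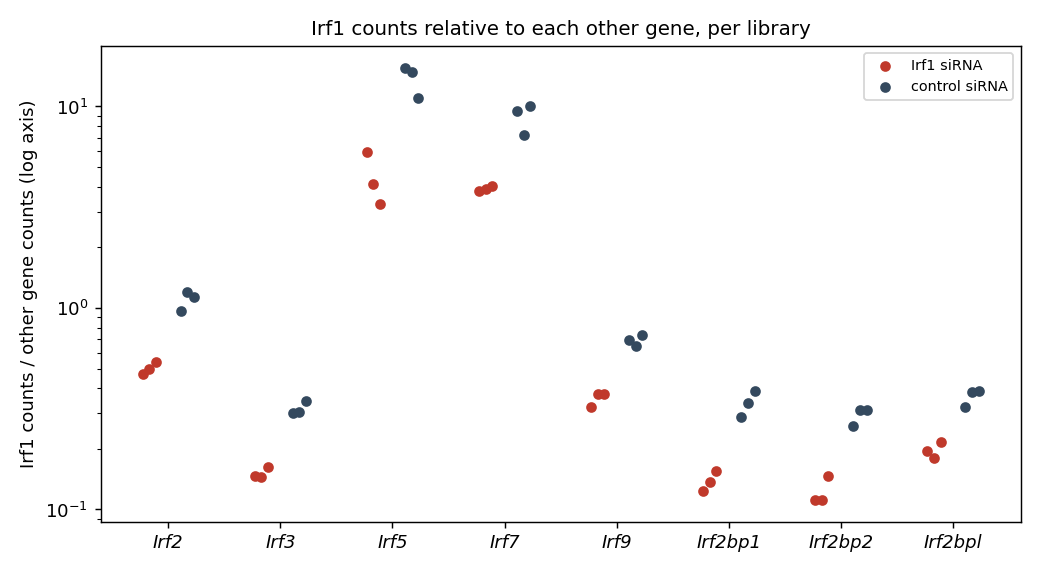
Irf1 counts divided by the counts of each other gene in the same library, on a log axis; points are libraries, with Irf1 siRNA to the left of control siRNA for each gene. In each of the 8 ratios the 3 Irf1 siRNA libraries lie below the 3 control siRNA libraries, and the fall of Irf1, the siRNA target, enters all 8.

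Irf3 (ENSMUSG00000003184.16) encodes a factor that cytosolic DNA and RNA sensors activate through TBK1. It was at 38.6, 35.0 and 37.2 CPM with Irf1 siRNA, against 37.1, 41.5 and 35.4 CPM with control siRNA, and the groups overlapped. The log2 fold change was −0.04 (SE 0.07, 95% interval −0.20 to 0.11, adjusted p = 0.727 in edgeR). With 854 to 1170 counts per library, this was the narrowest interval among the 6 Irf genes.

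Irf5 and Irf7 were the least abundant of the 9 genes and the least precisely measured. Irf5 (ENSMUSG00000029771.13), a factor best known from macrophages and dendritic cells, had 21, 34 and 43 counts with Irf1 siRNA, against 20, 24 and 33 with control siRNA. In CPM these were 0.948, 1.24 and 1.84 with Irf1 siRNA and 0.713, 0.851 and 1.11 with control siRNA, so the highest control library lay above the lowest knockdown library. The log2 fold change was 0.58 (SE 0.29, adjusted p = 0.169 in edgeR), with a 95% interval from −0.03 to 1.19, so neither no change nor a doubling lies outside it. With single libraries left out, the log2 fold change of Irf5 ranged from 0.29 to 0.77 (adjusted p 0.0924 to 0.582 in edgeR). It was lowest, at 0.29 (adjusted p = 0.582), without Irf1 siRNA replicate 3, the library where Irf5 was highest.

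Some 14.1% of the exon bases of Irf5 lie opposite exons of Tnpo3, which encodes a nuclear import receptor. Reads from that stretch can be assigned to either gene if strand was not used in counting, and the strand setting is not given in the sources used here. Tnpo3 had a log2 fold change of −0.04 (SE 0.06, adjusted p = 0.633). Levels of macrophage markers beside Irf5 were near 0 for most defining genes, and 3 of the 12 were tested. Cd68, which encodes a lysosomal glycoprotein, was higher with Irf1 siRNA (log2 fold change 0.40, SE 0.13, adjusted p = 0.0316), while Lyz2, which encodes lysozyme, gave −0.69 (adjusted p = 0.0566) and Mrc1, the mannose receptor gene, gave −0.07 (adjusted p = 0.837). Over the libraries of a group, Csf1r had 21 counts with Irf1 siRNA and 33 with control siRNA, and Ptprc had 9 and 20. Of 5 dendritic cell markers, Siglech and Xcr1 had 0 counts, Flt3 had 0 with Irf1 siRNA and 2 with control siRNA, and Itgax had 3 and 9. The transcription factor gene Zbtb46, the remaining marker, was higher with Irf1 siRNA (log2 fold change 0.44, SE 0.11, adjusted p = 0.0109). The part of these markers in the value of Irf5 was not tested.

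Irf7 (ENSMUSG00000025498.16) encodes the factor that amplifies type I interferon production and is itself induced by interferon. It had 33, 36 and 35 counts in the Irf1 siRNA libraries, against 33, 49 and 36 in the control siRNA libraries. Levels of 1.308 to 1.495 CPM with Irf1 siRNA fell inside the range of 1.18 to 1.74 CPM with control siRNA. The log2 fold change of 0.05 (SE 0.23, adjusted p = 0.902 in edgeR) had a 95% interval of −0.45 to 0.55. The interval ends at 1.47-fold upward.

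Irf9 (ENSMUSG00000002325.16), the DNA-binding subunit of ISGF3, was at 17.43, 13.58 and 16.01 CPM with Irf1 siRNA, against 16.1, 19.4 and 16.6 CPM with control siRNA. The groups overlapped. Its log2 fold change was −0.15 (SE 0.10, 95% interval −0.37 to 0.07, adjusted p = 0.321 in edgeR). Stat2, which encodes a partner of IRF9 in that complex, gave a log2 fold change of 0.09 (95% interval −0.10 to 0.27, adjusted p = 0.511). Exons of Irf9 share 123 bases with exons of Rnf31 on the same strand, 2.28% of its exon bases.

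The remaining family genes Irf4 and Irf8, which act mainly in blood cells, were too low to test. Irf4 had 4 counts over the Irf1 siRNA libraries and 3 over the control siRNA libraries, and Irf8 had 8 and 7.

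The 3 Irf2bp genes encode related corepressors, and 1 of them passed the test. Irf2bpl (ENSMUSG00000034168.8, chr12:86880701-86884798, minus strand, GRCm38) had 28.9, 28.3 and 27.8 CPM in the Irf1 siRNA libraries, against 34.4, 32.9 and 31.4 CPM in the control siRNA libraries. All knockdown libraries lay below all control libraries, by a small margin. It fell by 0.22 on the log2 scale (SE 0.07, 95% interval −0.36 to −0.07, adjusted p = 0.0297 in edgeR), which left 86.0% of the control level. The SD over replicates was 1.85% of the mean with Irf1 siRNA and 4.59% with control siRNA. Counting error alone gives 3.81% and 3.26% at this depth, so the spread with Irf1 siRNA was smaller than counting error. The call rested on single libraries and settings: it was lost without Irf1 siRNA replicate 2 or 3 or control siRNA replicate 1 or 2 (adjusted p 0.054 to 0.119), with DESeq2 (0.0519), with upper-quartile scaling (0.0524) and with no scaling factors (0.0535).

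Irf2bp1 (ENSMUSG00000044030.5) was at 45.8, 37.0 and 38.6 CPM with Irf1 siRNA, against 38.5, 37.4 and 31.5 CPM with control siRNA. Knockdown replicate 1 was high and control replicate 3 was low, and the groups overlapped. Its log2 fold change was 0.18 (SE 0.09, 95% interval −0.02 to 0.37, adjusted p = 0.188 in edgeR). Irf2bp2 (ENSMUSG00000051495.9), which represses NFAT1 in human cells, was at 50.7, 45.5 and 40.9 CPM with Irf1 siRNA, against 42.7, 40.4 and 39.4 CPM with control siRNA. Those groups overlapped as well. The log2 fold change of 0.16 (SE 0.08, 95% interval 0.00 to 0.32) had an unadjusted p of 0.0495 and an adjusted p of 0.145. Some 20.5% of the exon bases of Irf2bp2 lie opposite the antisense gene Gm26759, which was too low to test.

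Inside the trio, shares of summed CPM per kilobase of exon do not depend on the scaling between libraries. Irf2bpl made up 20.9%, 23.5% and 23.5% of the trio in the Irf1 siRNA libraries, against 27.2%, 27.1% and 28.5% in the control siRNA libraries. Its share was lower in all knockdown libraries, and the groups did not overlap. The 3 shares must sum to the same total, so the values of Irf2bp1 and Irf2bp2 enter the share of Irf2bpl. The lowest share, 20.9%, was in knockdown replicate 1, where Irf2bp1 was at its highest, 45.8 CPM. Irf2bp1 held 48.1 ± 1.86% with Irf1 siRNA and 44.8 ± 1.81% with control siRNA (SD, n = 3 each), and Irf2bp2 held 29.3 ± 1.35% and 27.6 ± 1.04%.

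**Figure D3:**
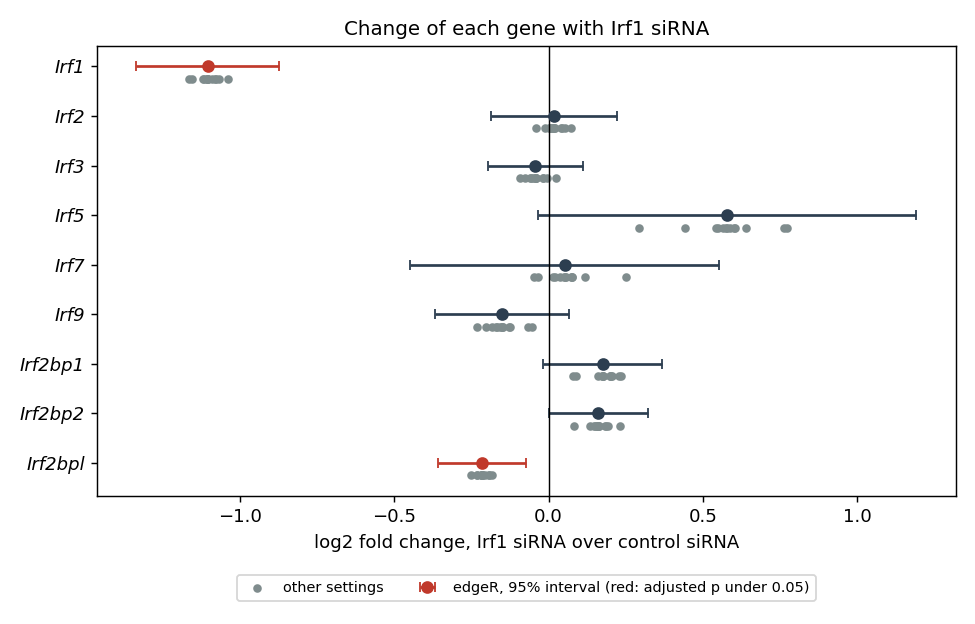
Log2 fold change of each gene, Irf1 siRNA over control siRNA, from edgeR with its 95% interval (red where the adjusted p is under 0.05); grey points below each are the 13 alternative settings. Irf1 stands apart at −1.10, Irf2bpl is at −0.22, and the intervals of Irf5 and Irf7 are the widest.

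Levels can be compared between genes only per length, here as CPM per kilobase of exon. In the control siRNA libraries the order ran from Irf2bp1 at 13.1 ± 1.38, through Irf3 at 11.03 ± 0.920, Irf2bp2 at 8.04 ± 0.340, Irf2bpl at 8.03 ± 0.369, Irf9 at 3.22 ± 0.328, Irf1 at 3.01 ± 0.191 and Irf2 at 1.48 ± 0.0692, to Irf7 at 0.365 ± 0.0829 and Irf5 at 0.307 ± 0.0701 (CPM per kb, SD, n = 3). Neighbours whose ranges over libraries overlapped were Irf2bp1 and Irf3, Irf2bp2 and Irf2bpl, Irf9 and Irf1, and Irf7 and Irf5. With control siRNA, Irf3 and the Irf2bp genes were at 7.66 to 14.1 CPM per kb. Irf9, Irf1 and Irf2 were at 1.42 to 3.60, where Irf1 and Irf2 did not overlap, and Irf5 and Irf7 were at 0.246 to 0.460. These ranges depend on the length used. Irf1 has 3.976 kb of exon bases but a longest transcript of 2.137 kb, while both lengths are 4.098 kb for Irf2bpl. By longest transcript, Irf1 took place 5 and Irf9 place 6 with control siRNA.

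Irf1 stood at place 7 of this order with Irf1 siRNA and at place 6 with control siRNA. It was at 1.40 ± 0.119 CPM per kb with Irf1 siRNA and 3.01 ± 0.191 with control siRNA, while Irf2 was at 1.501 ± 0.116 and 1.48 ± 0.0692 (SD, n = 3 each). The 2 genes overlapped over the Irf1 siRNA libraries (1.28 to 1.51 for Irf1 and 1.39 to 1.62 for Irf2) but not over the control siRNA libraries. Among all tested genes with a length, Irf1 stood at the 28.5th percentile of CPM per kb with Irf1 siRNA and the 42.1st with control siRNA. Irf3 stood at 72.7 with Irf1 siRNA and 73.4 with control siRNA.

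Irf3 took the largest part of the summed CPM per kb of the 6 Irf genes, 61.7 ± 1.23% with Irf1 siRNA and 56.8 ± 1.33% with control siRNA (SD, n = 3 each). Irf1 took 7.80%, 7.93% and 8.50% in the knockdown libraries, against 15.0%, 15.1% and 16.5% in the control libraries, and the groups did not overlap. The share of Irf9 was 16.7 ± 1.07% with Irf1 siRNA and 16.6 ± 0.563% with control siRNA. These shares must sum to the same total, so the lower share of Irf1 enters those of the other 5 genes.

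**Figure D4:**
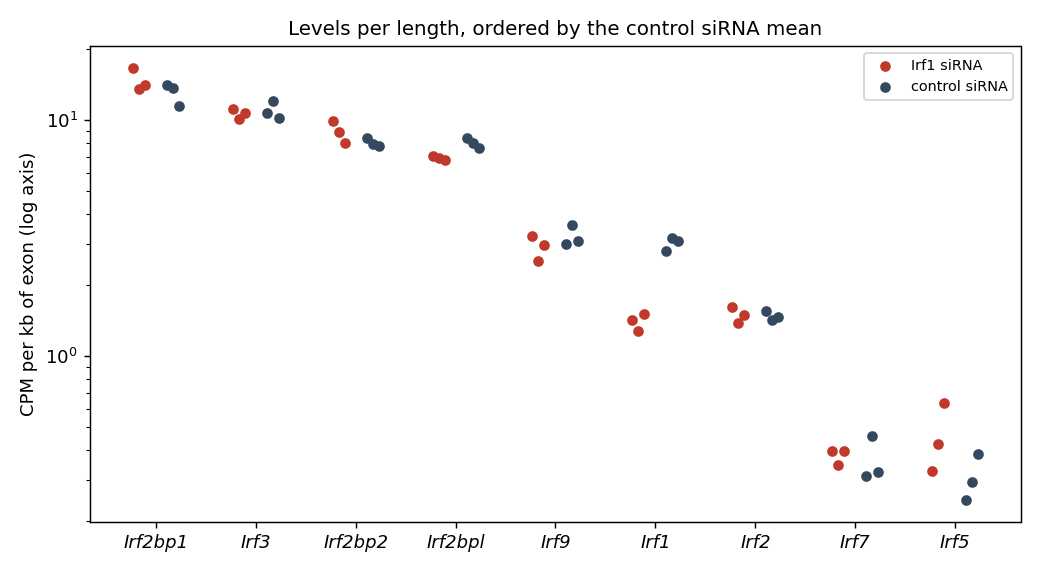
CPM per kilobase of exon of each gene in each library, on a log axis, ordered by the control siRNA mean; Irf1 siRNA libraries are left of control siRNA libraries. Irf1 at 1.28 to 1.51 with Irf1 siRNA lies at the level of Irf2, and at 2.80 to 3.17 with control siRNA it lies at the level of Irf9.

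The promoters of the 9 genes were searched, on both strands of 300 bases from RefSeq (GRCm38.p6; 250 before and 50 after each start), for 2 motifs. The first is the core of the interferon-stimulated response element that IRFs bind, which has GAAA on either side of any 2 bases. The second is TTCNNNGAA, the core of the element that STAT3 and its relatives bind. They are shown because interferons are known to act on Irf1 and Irf2 at the level of transcription. The matches did not overlap each other. All 9 genes had a promoter in the table. The first motif was found in Irf2 and in none of the other 8, against 3.44% of 32851 promoters. The second was found in Irf1, Irf2 and Irf2bp1, against 8.30% of promoters. These are counts of genes set beside shares of promoters, and of the 2 promoters listed for Irf1 only the upstream one held a match. Capitals mark the motif in the plus strand of chr11:53769914-53769942 and chr8:46739495-46739523:
Irf1 STAT element: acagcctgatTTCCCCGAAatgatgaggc
Irf2 IRF element: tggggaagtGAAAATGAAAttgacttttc
A match is a description of the letters and not a binding site. Stat3, a factor that binds such elements, was at 133.3, 121.6 and 129.5 CPM with Irf1 siRNA, against 202.0, 200.9 and 192.7 CPM with control siRNA. The log2 fold change of Stat3 was −0.63 (95% interval −0.75 to −0.51, adjusted p = 1.2e-06 in edgeR), and its 3′ UTR held a word of the kind described for Irf1. Among genes with an annotated 3′ UTR, 43.8% of all lower genes and 22.4% of all tested genes held one there. The words were picked on these same libraries, so the word in Stat3 supports nothing. Whether Stat3 has a part in the level of Irf1 was not tested.

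Genes around the family were read from 6 lists, chosen, like the 9 genes, with earlier results of these data known. The list of genes linked to IRF1 holds 28 genes, mostly of antigen presentation and of the interferon-inducible GTPases. Of its 21 tested genes, 10 fell, 2 rose and 9 did not pass the test, with a median log2 fold change of −0.34 against 0.00 for all genes. Thus 57.1% of these genes were called, against 22.4% of all tested genes (10.4% higher and 12.0% lower). Since the list was chosen with earlier results of these data known, this difference is a description and not independent support. Psmb8, Psmb9, Il15, Casp1, Ifi47, Nos2 and Ciita were too low to test.

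Gbp2, a guanylate-binding protein gene, had 0.993, 1.34 and 0.854 CPM with Irf1 siRNA, against 3.10, 3.55 and 3.68 CPM with control siRNA. No library overlapped, and the level was 3.19-fold lower (log2 fold change −1.67, SE 0.20, adjusted p = 2.6e-05 in edgeR). Tap2, a subunit of the peptide transporter of the endoplasmic reticulum, had 3.16, 2.58 and 2.35 CPM with Irf1 siRNA, against 6.06, 6.63 and 5.13 CPM with control siRNA. Its fall of 1.14 (SE 0.16, adjusted p = 8.5e-05) was close in size to that of Irf1 itself. The partner subunit gene Tap1 fell by 0.76 (SE 0.15, adjusted p = 0.00149), from the same test.

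Smaller falls were seen in more abundant genes of peptide supply. The proteasome activator genes Psme1 and Psme2 fell by 0.39 and 0.47, and Tapbp, which encodes tapasin, fell by 0.34 (log2 scale, SE 0.06, adjusted p = 8.2e-04 in edgeR). Psme2 has near-identical copies that could share its reads. Gbp7, Irgm2, Xaf1 and Cd274 also fell, at means of 0.380 to 1.17 CPM with Irf1 siRNA and 0.803 to 1.97 CPM with control siRNA. Gbp7 lost its call without Irf1 siRNA replicate 1, Irgm2 in 2 of 13 settings, Xaf1 in 4 and Cd274 in 6. The chemokine genes Ccl5 and Cxcl10 rose, by 0.80 and 0.59, calls lost in 6 and 8 of 13 settings. B2m, the light chain of class I molecules, gave 0.02 (adjusted p = 0.871). Of the 10 genes that fell, Irgm2 held a word in the 3′ UTR, Gbp2, Tap1 and Cd274 held a word only in the coding sequence, and the other 6 held none. Among genes with an annotated 3′ UTR, 43.8% of all lower genes and 22.4% of all tested genes held a word there. No such share was computed for coding sequences. The words were picked on these same libraries, so their presence or absence in a gene supports nothing.

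Genes linked to ISGF3, the complex that contains IRF9, gave 2 lower and 1 higher among 18 tested, with a median log2 fold change of −0.06. Bst2, which tethers budding virus particles, fell by 0.43 (adjusted p = 0.0491), Cmpk2, a mitochondrial nucleotide kinase, fell by 1.26 (adjusted p = 0.0228), and Oasl1, a relative of the oligoadenylate synthetases, rose by 1.30 (adjusted p = 0.0491 in edgeR). Each of these calls was lost in 6 or more of 13 settings. The share called, 16.7%, was near the 22.4% of all tested genes, and the lower count ranged from 0 to 3 over the 13 settings. Mx1, Mx2, Oas1a, Oas2, Oas3 and Oasl2 were too low to test, so the reading covers the list only in part.

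Among 10 interferon receptor, JAK and STAT genes, 1 fell and 1 rose, 20.0% against 22.4% of all tested genes, which is near the background. Beside Stat3, the kinase gene Jak2 rose by 0.18 (SE 0.06, adjusted p = 0.0351 in edgeR), a call lost in 5 of 13 settings. Of 8 inhibitors of the signal, 0 fell and 1 rose in edgeR, the phosphatase gene Ptpn11, by 0.20 (adjusted p = 0.0210). That is 12.5% of the list, against 22.4% of all tested genes. Its call was lost without Irf1 siRNA replicate 3, control siRNA replicate 1 or control siRNA replicate 2.

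The 20 tested genes that activate IRF3, IRF5 and IRF7 gave 2 lower and 2 higher, 20.0% against 22.4% of all genes. Tlr3, the endosomal receptor of double-stranded RNA, fell to 2.48, 2.87 and 2.43 CPM with Irf1 siRNA, against 4.71, 3.94 and 4.59 CPM with control siRNA (log2 fold change −0.76, SE 0.15, adjusted p = 0.00230 in edgeR). That call held in all 13 settings. The ubiquitin ligase gene Traf6 fell by 0.21, its relative Traf3 rose by 0.22 and Cgas, which encodes the cytosolic DNA sensor, rose by 0.47, with calls lost in 7, 3 and 8 of 13 settings. Tbk1, the kinase of IRF3 and IRF7, gave −0.02 (95% interval −0.15 to 0.11, adjusted p = 0.868).

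The last list holds 4 genes tied to the Irf2bp proteins in other work. Of these, 2 rose and 1 fell in edgeR, 75.0% against 22.4% of all tested genes. The list is small and was chosen with earlier results of these data known, so this share supports nothing here. Vgll4, the TEAD cofactor that IRF2BP2 binds, was at 45.7, 50.9 and 52.4 CPM with Irf1 siRNA, against 38.3, 41.9 and 39.0 CPM with control siRNA. All knockdown libraries were higher, and it rose by 0.32 on the log2 scale (SE 0.07, 95% interval 0.18 to 0.47, adjusted p = 0.00305 in edgeR). Klf2, a transcription factor gene linked to Irf2bp2 in macrophages, rose by 0.72 (SE 0.18, adjusted p = 0.0212), with 32.7, 24.01 and 24.7 CPM in the Irf1 siRNA libraries, against 18.3, 18.5 and 12.4 CPM in the control siRNA libraries. Vegfa, which encodes a vascular growth factor, fell by 0.17 (adjusted p = 0.0494), a call lost in 6 of 13 settings, and Nfatc2, which encodes NFAT1, gave −0.82 with an adjusted p of 0.116. The calls of Vgll4 and Klf2 held in all 13 settings.

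**Figure D5:**
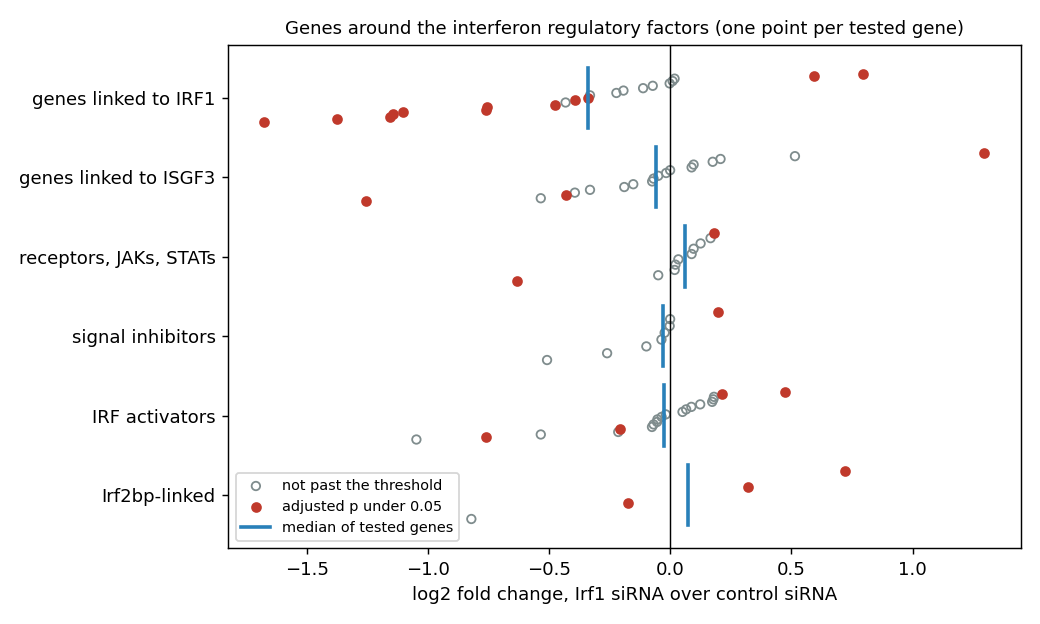
Log2 fold changes (Irf1 siRNA over control siRNA) of the tested genes of 6 lists around the interferon regulatory factors; filled points have an adjusted p under 0.05 in edgeR and blue lines are list medians. The list linked to IRF1 has 10 lower and 2 higher genes of 21 (12.0% lower and 10.4% higher among all tested genes) and a median of −0.34, while the other medians lie between −0.06 and 0.07. All 6 lists were chosen with earlier results of these data known.

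Finally, genes with a profile like that of Irf1 were ranked. Likeness was the mean absolute difference over the 6 libraries between log2 CPM values, each taken relative to the control siRNA mean of the gene, over 10158 genes averaging 5 CPM or more. Irf1 itself was at −1.07, −1.22 and −0.98 in the Irf1 siRNA libraries and at −0.10, 0.07 and 0.03 in the control siRNA libraries. The 5 closest genes were Tspan9, which encodes a tetraspanin (difference 0.06), Sptlc1, a subunit of serine palmitoyltransferase (0.06), Maged1 (0.07), Dffa, the inhibitor of the caspase-activated DNase (0.08), and Cmc1 (0.09). Their log2 fold changes ran from −1.13 for Sptlc1 to −0.94 for Cmc1. Tspan9, Maged1 and Cmc1 held a word of the kind described for Irf1 in the 3′ UTR, and Sptlc1 and Dffa held none. For comparison, 43.8% of all lower genes held one there, and the words were picked on these same libraries.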

How the data were processed

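The authors deposited 1 table of raw, whole-number read counts per gene for each of the 6 libraries. Per the submitters' processing notes, reads were handled with Trimmomatic 0.39, FastQC and STAR on build GRCm39 (mm39). Of the counting tool, annotation release and strand setting, none is given in the sources used here, so overlapping genes can share reads. Groups follow the labels.

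The tests ran in edgeR 4.0.16 under R 4.3.3: filterByExpr, TMM factors, and a robust quasi-likelihood F test (two-sided, group only), with Benjamini-Hochberg adjustment over 14683 genes and a threshold of 0.05. The standard error is the absolute log2 fold change over the square root of F, and 95% intervals use the t distribution of the fit. Ratios inside a library were compared with an exact permutation test. The fit was tested on simulated data. DESeq2 1.42.0 and limma 3.58.1 were alternatives, with other scalings, filters, a replicate block and leaving out each library.

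No library was a copy of another in its group (chi-square per degree of freedom of 5.35 to 15.2 between their counts). Exon lengths, transcripts and overlaps came from GENCODE M21 (GRCm38, not the authors' build), matched by gene identifier for 99.8% of tested genes. CPM per kilobase divides by all annotated exon bases. Word classes per gene used protein-coding transcripts, and the search for both words together used all transcripts.

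The 9 genes and all lists and words were chosen with earlier results of these data known. Genes named from the lists are all those past the threshold plus Stat2, Tbk1 and Vgll4; 1 further list gene is not reported here; B2m and Nfatc2 were named after their values were seen. The ranking of genes like Irf1 leaves out clone and predicted names.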

Additional observations from a re-analysis of the deposited data

How the results depend on the processing

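Irf1 kept its direction and its call in all 13 alternative settings, with log2 fold changes of −1.17 to −1.04 and adjusted p of at most 4.8e-05. Irf2bpl kept its direction in 13 of 13 and its call in 6. It was −0.19 with upper-quartile scaling (adjusted p = 0.0524 in edgeR), −0.19 with no scaling factors (0.0535) and −0.21 with DESeq2 (0.0519). Without single libraries it ranged from −0.25 to −0.18 (adjusted p 0.0275 to 0.119). In those 3 settings, and without Irf1 siRNA replicate 2 or 3 or control siRNA replicate 1 or 2, 1 of the 9 genes was called in place of 2. The other 7 genes were called in none of the 13. With single libraries left out, Irf2 ranged from −0.039 to 0.074, Irf3 from −0.093 to 0.025 and Irf7 from −0.048 to 0.25, all crossing 0. Irf9 ranged from −0.23 to −0.053 (nearest 0 without Irf1 siRNA replicate 2), Irf2bp1 from 0.078 to 0.24 and Irf2bp2 from 0.083 to 0.23 (both nearest 0 without Irf1 siRNA replicate 1). Irf5 ranged from 0.29 to 0.77 (nearest 0 without Irf1 siRNA replicate 3). Over all genes, 1522 were higher and 1767 lower; the higher count ranged from 959 to 1398 without single libraries, with 959 without Irf1 siRNA replicate 3 and 980 without control siRNA replicate 2. Of calls, 54.5% were higher with upper-quartile scaling and 54.0% with no scaling factors. The order of levels kept 5 of 9 places with the longest transcript as length and 7 of 9 with no division by length. Of 156 recomputed list counts, 56 moved by over 1.5 times; the 10 lower genes linked to IRF1 became 7 to 13.

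Same-numbered libraries deviated together weakly for replicate 1 (r = 0.20 across genes) and hardly for replicates 2 and 3 (−0.04 and 0.05). Libraries with unlike numbers gave r from −0.23 to 0.19. The numbers were therefore not taken to pair the libraries. With a replicate block, 1744 genes were higher and 1984 lower, and 2 of the 9 genes were called, Irf2bpl at −0.22 (adjusted p = 0.0334). Depth limits Irf5 and Irf7, with 20 to 49 counts per library.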
